A study of Mus musculus with 10 samples.

Results

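The transcripts described here are those of 10 genes that mark ERK signalling and feed back on it: the phosphatases Dusp4, Dusp5 and Dusp6, the Sprouty genes Spry1, Spry2 and Spry4, the Sprouty-related genes Spred1 and Spred2, and the ETS transcription factors Etv4 and Etv5. They were matched by symbol among the 31053 genes of each count matrix, each symbol named 1 row, and all 10 passed the filter on low counts. The data are single-cell RNA counts of EpCAM+ cells from the distal lung of adult mice, sorted for RFP or YFP. All mice carried Sftpc-CreERT2, which in the alveolus recombines in alveolar type 2 (AT2) cells, and all were given 3 doses of tamoxifen at 0.2 mg per gram of body weight. In Sftpc-CreERT2;R26R-Confetti mice, both colours are wildtype, and there was 1 RFP and 1 YFP library, here called Confetti. In Sftpc-CreERT2;Red2Kras mice, RFP+ cells express the oncogene of the line and are called mutant here, and YFP+ cells are the wildtype neighbours from the same kind of lung, with 2 RFP and 2 YFP libraries collected 4 days after induction and as many of each after 2 weeks. This gave 6 groups over 10 libraries. The labels give Confetti no time. Its collection matched the later of the Red2Kras time points by the methods, so that the early groups differ from Confetti in time too, and they were collected before tamoxifen had washed out. Each sample pooled lungs of several mice, so that replicates are pools and not single animals, and no label says which pools shared lungs. The methods list Confetti once where they list each Red2Kras time point as a repeat, so that its RFP and YFP libraries appear to be both colours of a single pool and not replicates.

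Growth factor receptors activate Ras, which through RAF and MEK switches on the kinase ERK. ERK in turn induces genes that limit it. Dusp6 removes the activating phosphates of ERK in the cytoplasm, and Dusp4 and Dusp5 act in the nucleus. Sprouty proteins and the membrane-bound Spred proteins act upstream, at the receptor and at Ras. Spred1 also brings the Ras-inactivating protein neurofibromin to the membrane. Etv4 and Etv5 are ETS factors downstream of FGF receptors in the developing lung, and Etv5 is known for its part in keeping AT2 identity. For these reasons transcripts of this set are widely read as a record of ERK output. The comparisons ask which of them differed between mutant cells, their wildtype neighbours and Confetti cells.

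The matrices held 42012 barcodes, of which 32698 were kept as cells and 29579 lay in alveolar clusters, with 7177788 to 69760940 UMIs (unique transcript counts) per library in the summed alveolar cells. The median UMI count per alveolar cell was 15813 and 13381.5 in the 2 weeks RFP libraries and 3251 to 6714 in the other 8. AT2 markers summed to 100046 CPM (counts scaled to library size) or more in every library, and the 10 immune markers to 30.3 CPM or less, with Ptprc at 0.66 CPM or less. Airway secretory markers (6 genes) summed to 1914 to 2018 CPM in Confetti, 84.0 to 382 CPM in RFP and 310 to 995 CPM in YFP, and ciliated markers (7 genes) to 134 to 139, 24.1 to 77.7 and 59.1 to 124 CPM. All of these markers were found in Confetti, and up to 3 airway secretory and 2 ciliated ones were at 0 in a Red2Kras library. Their part in the comparisons with Confetti was not tested. Clusters were named from marker lists as AT2-like, primed AT2-like (acute-phase genes such as Lcn2 and Lrg1), cycling-like, DATP-like (Krt8 and Cldn4, markers of the transient progenitors seen after lung damage) and Cd177 mixed-like (Cd38, Dlk1). Of the 3 clusters counted as AT2-like, cluster 4 (3566 cells) is the least sure, since it was led by immediate-early and stress genes (Nfkbia, Atf3, Fosb, Jun), held no AT2 marker among its 10 leading genes and scored highest, though low, on the DATP list. Values without it, an alternative chosen after the data were seen, are given where they differ. Replicates stood apart. The 4 days RFP replicate 1 held 89.8% AT2-like cells and replicate 2 held 3.14%, with 36.4% DATP-like and 48.3% primed AT2-like cells, and the 4 days YFP libraries split in the same way (95.3% and 1.19% AT2-like cells). Without cluster 4 the replicates 1 held 67.8% (RFP) and 78.2% (YFP). At 2 weeks, DATP-like cells made up 20.8% and 39.7% of the RFP libraries and at most 3.07% of the YFP libraries. Fewer expressing cells and less RNA per cell cannot be told apart in library sums.

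Promoters were available for 7 of the 10 genes (RefSeq, GRCm38.p6, 250 bases before the start site to 50 after). The 250 bases before the RefSeq start are printed, 5′ to 3′, for the 2 phosphatases that were higher in mutant cells and have an entry. Beside them is Etv5, which was lower in mutant cells and has 2 entries. For Dusp5 and Etv5 this start lies inside the gene coordinates given further below, so that part of the printed stretch does too. Capitals mark matches to the motifs searched on both strands.
Dusp5 (chr19:53528895-53529144, + strand): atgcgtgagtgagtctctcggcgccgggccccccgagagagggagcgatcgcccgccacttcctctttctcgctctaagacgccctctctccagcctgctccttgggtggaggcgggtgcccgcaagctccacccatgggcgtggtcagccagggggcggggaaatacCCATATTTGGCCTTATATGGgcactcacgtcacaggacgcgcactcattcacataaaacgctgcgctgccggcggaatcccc
Dusp6 (chr10:99262981-99263230, + strand): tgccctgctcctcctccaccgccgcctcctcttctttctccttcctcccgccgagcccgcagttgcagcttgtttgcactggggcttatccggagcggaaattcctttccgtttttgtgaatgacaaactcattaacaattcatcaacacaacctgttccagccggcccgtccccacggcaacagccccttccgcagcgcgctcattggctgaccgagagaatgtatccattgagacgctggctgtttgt
Etv5 (chr16:22439571-22439820, - strand): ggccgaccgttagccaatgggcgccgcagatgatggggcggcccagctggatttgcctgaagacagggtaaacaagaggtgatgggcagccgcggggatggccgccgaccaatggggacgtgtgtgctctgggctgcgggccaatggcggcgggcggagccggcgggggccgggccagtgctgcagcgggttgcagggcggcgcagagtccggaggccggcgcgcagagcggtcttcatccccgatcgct
The search covered an ETS site (CCGGAA), an AP-1 site (TGANTCA), a cyclic AMP response element (TGACGTCA) and the CArG box, the site bound by serum response factor. The CArG box was added after the sequences had been seen. The Dusp5 promoter holds 2 CArG boxes side by side, starting 82 and 72 bases before the RefSeq start site, and they overlap no other motif searched. Of 32851 promoters of this length, 1.63% hold a CArG box and 14.9% hold CCGGAA, which among the 7 genes was found in Spry2 alone, within the 50 bases after the start. TGANTCA (7.81% of promoters) and TGACGTCA (1.79%) were found in none of the 7, which says only that these letters are not in this window.

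Etv4 was nearly absent from wildtype libraries, where its levels rest on 5 to 29 UMIs each. In summed alveolar cells (GRCm38, chr11:101769742-101785371), its level was 0.373 CPM in Confetti RFP and 0.404 CPM in Confetti YFP, from 6 UMIs each. In 4 days RFP it was 6.71 and 17.4 CPM, against 0.484 and 0.782 CPM in 4 days YFP. In 2 weeks RFP it was 17.8 and 30.6 CPM, against 0.931 and 4.78 CPM in 2 weeks YFP. Every RFP library thus lay above all 6 wildtype libraries, and the lowest of them was the 4 days RFP library with most AT2-like cells. Against Confetti, the log2 fold change (edgeR) was 5.94 ± 0.91 (SE) at 2 weeks (adjusted p = 0.0342, 2 RFP libraries against both colours of Confetti) and 4.92 ± 0.90 at 4 days, where it did not pass (adjusted p = 0.322). In this and every other comparison with Confetti, the fit counts its 2 colours as independent libraries and takes the spread from the Red2Kras replicates, so that a difference between Confetti pools is not in the error. The wildtype neighbours at 2 weeks were 2.68 ± 0.93 above Confetti (adjusted p = 0.764).

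**Figure D1:**
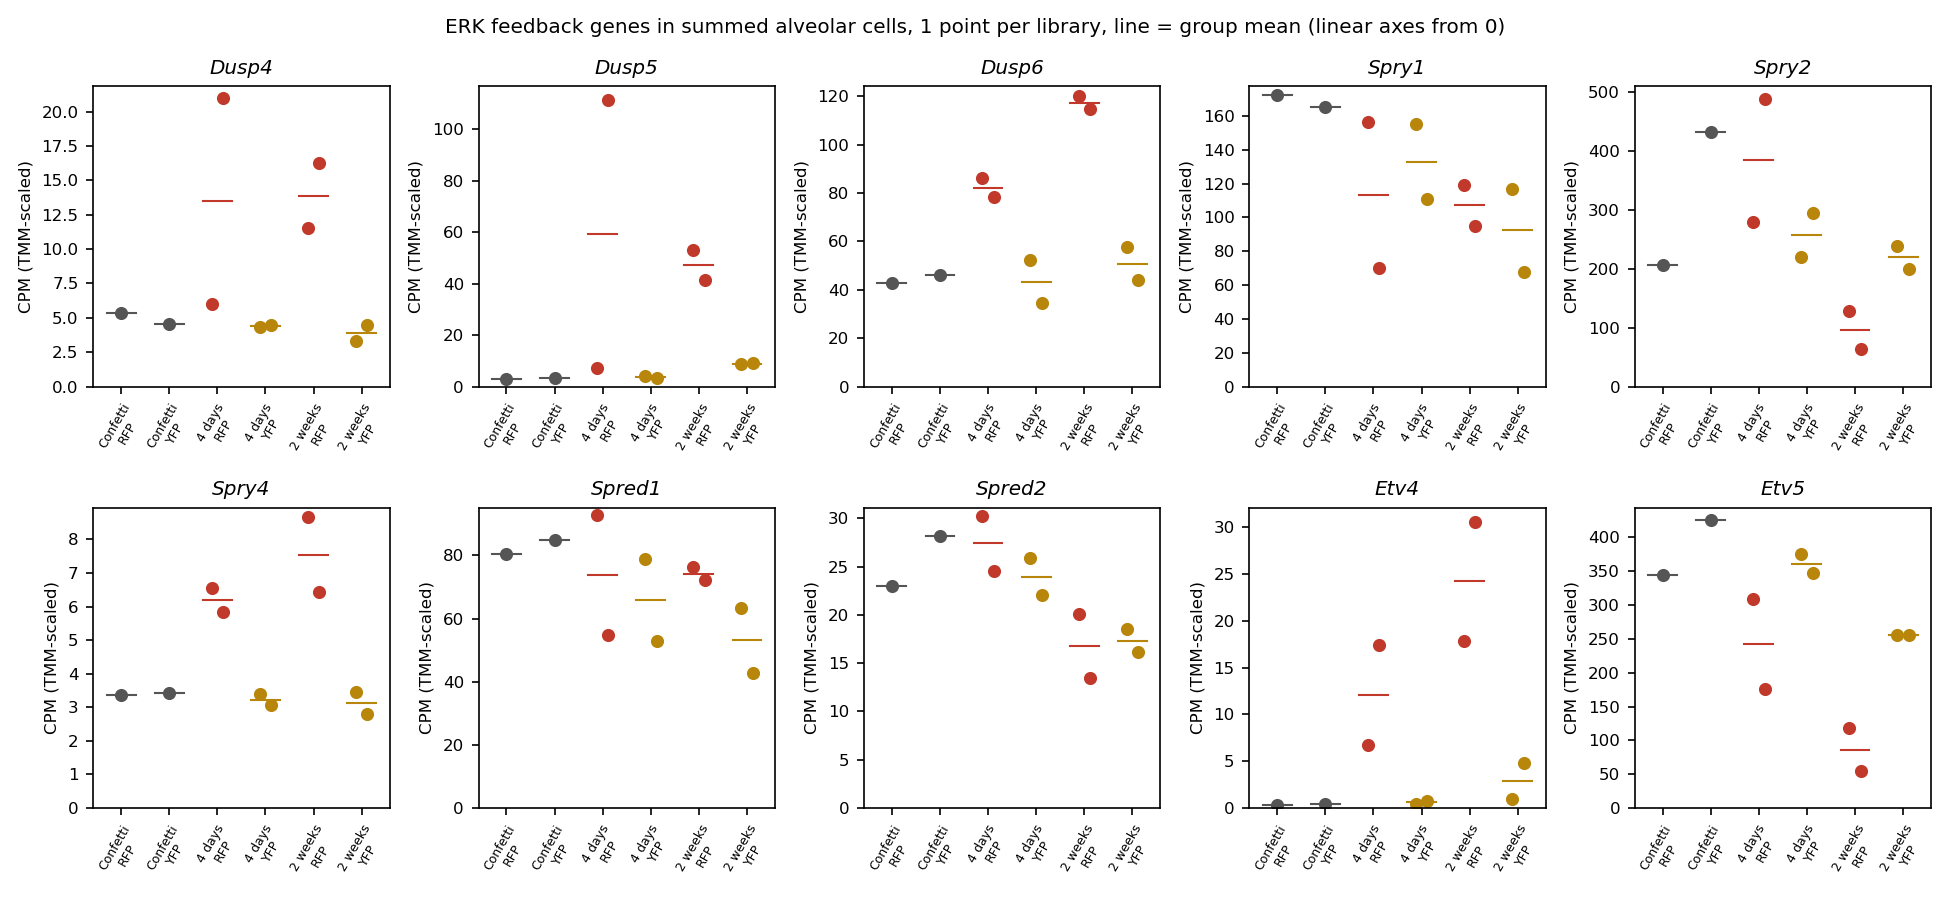
Levels of the 10 genes in summed alveolar cells, in TMM-scaled CPM on linear axes from 0. Each point is 1 library, the line is the group mean, grey is Confetti, red is Red2Kras RFP and ochre is Red2Kras YFP. For Dusp4, Dusp6, Spry4 and Etv4 all 4 red points lie above every grey and ochre point, whereas for Spry1, Spred1 and Spred2 red and ochre points overlap.

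Of the phosphatases, Dusp6 (chr10:99263231-99267489) was the most even between replicates in RFP, but not in YFP. It lay at 42.6 and 46.2 CPM in Confetti, 86.0 and 78.5 CPM in 4 days RFP, 119.9 and 114.8 CPM in 2 weeks RFP, 52.3 and 34.5 CPM in 4 days YFP, and 57.7 and 43.9 CPM in 2 weeks YFP. The wildtype neighbours stayed within the range 34.5 to 57.7 CPM around the Confetti values, and the lowest mutant library was at 78.5 CPM. Dusp6 was 1.40 ± 0.28 (log2, SE) higher in 2 weeks RFP than in Confetti (adjusted p = 0.0440). At 4 days the same difference was 0.89 ± 0.28 (adjusted p = 0.500).

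Dusp5 (chr19:53529109-53542431), whose promoter carries the pair of CArG boxes above, spread far more between RFP replicates. It was at 2.80 and 3.23 CPM in Confetti, 7.13 and 111.4 CPM in 4 days RFP, 53.0 and 41.6 CPM in 2 weeks RFP, 4.07 and 3.31 CPM in 4 days YFP, and 8.69 and 9.07 CPM in 2 weeks YFP. The AT2-rich 4 days RFP replicate 1 therefore fell among the wildtype libraries, below both 2 weeks YFP libraries, and the other 3 RFP libraries lay well above them. The fold change against Confetti was 3.97 ± 1.03 at 2 weeks (log2, SE, adjusted p = 0.0565) and 4.29 ± 1.05 at 4 days (adjusted p = 0.479), and neither passed. Dusp4 (chr8:34807297-34819894) was at 5.34 and 4.58 CPM in Confetti, 6.03 and 20.99 CPM in 4 days RFP, 11.5 and 16.2 CPM in 2 weeks RFP, 4.36 and 4.45 CPM in 4 days YFP, and 3.30 and 4.45 CPM in 2 weeks YFP. All 4 RFP libraries were again above all wildtype libraries, replicate 1 at 4 days by a small margin. Its difference from Confetti at 2 weeks was 1.49 ± 0.53 (adjusted p = 0.106).

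Spry4 alone of the Sprouty genes shared this pattern (chr18:38586247-38601415). It had few UMIs, 17 to 649 per library, and lay at 3.36 and 3.43 CPM in Confetti, 6.55 and 5.84 CPM in 4 days RFP, 8.66 and 6.43 CPM in 2 weeks RFP, 3.39 and 3.07 CPM in 4 days YFP, and 3.45 and 2.80 CPM in 2 weeks YFP. The 6 wildtype libraries were thus within 2.80 to 3.45 CPM and the 4 mutant libraries within 5.84 to 8.66 CPM, with no overlap. The difference between 2 weeks RFP and Confetti was 1.15 ± 0.32 (log2, SE) and did not pass (adjusted p = 0.0642).

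Etv5, the close relative of Etv4, went the other way (chr16:22381309-22439719). It was at 345 and 425 CPM in Confetti, 309 and 176 CPM in 4 days RFP, 118 and 54.2 CPM in 2 weeks RFP, 376 and 347 CPM in 4 days YFP, and 255 and 256 CPM in 2 weeks YFP. Both 2 weeks RFP libraries were below every wildtype library, and 4 days RFP replicate 1 lay within the wildtype range. In 2 weeks RFP, Etv5 fell by 2.15 ± 0.44 on the log2 scale relative to Confetti (adjusted p = 0.0440). At 4 days the log2 difference was -0.66 ± 0.42 (adjusted p = 0.661). The change of the wildtype neighbours at 2 weeks, -0.59 ± 0.42, did not pass either (adjusted p = 0.766).

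Spry2 (chr14:105891947-105896819) differed between the colours of Confetti alone by as much as between many groups. It was at 207 CPM in Confetti RFP and 432 CPM in Confetti YFP, 279 and 489 CPM in 4 days RFP, 128 and 64.2 CPM in 2 weeks RFP, 221 and 294 CPM in 4 days YFP, and 238 and 200.1 CPM in 2 weeks YFP. The 2 weeks RFP libraries were the lowest of all 10, and the 4 days RFP replicate 2 was the highest. The log2 difference from Confetti was -1.64 ± 0.42 at 2 weeks (adjusted p = 0.0561) and 0.36 ± 0.41 at 4 days (adjusted p = 0.801). From 4 days to 2 weeks the difference between RFP and YFP changed by -1.77 ± 0.59 (log2, SE), an interaction that did not pass (adjusted p = 1, unadjusted p = 0.0166), and none of the 13760 genes did.

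For Spry1, Spred1 and Spred2 the RFP and YFP libraries overlapped, and for Spry1 both Confetti libraries lay above them. Spry1 (chr3:37639947-37644598) ranged over 70.1 to 157 CPM in RFP, 68.0 to 155 CPM in YFP and 165 to 172 CPM in Confetti. Spred1 (chr2:117121374-117182279) ranged over 54.7 to 92.7 CPM in RFP, 42.7 to 79.0 CPM in YFP and 80.5 to 84.8 CPM in Confetti. Spred2 (chr11:19924375-20024026) ranged over 13.5 to 30.3 CPM in RFP, 16.2 to 25.9 CPM in YFP and 23.0 to 28.1 CPM in Confetti. None passed in any comparison. Between RFP and YFP over both times, their log2 differences were -0.02 ± 0.30 for Spry1, 0.30 ± 0.24 for Spred1 and 0.05 ± 0.19 for Spred2 (SE), and the sign of the first turned with the scaling used (0.0012 with RLE size factors).

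Set beside all genes, 3 of the 10 passed in 2 weeks RFP against Confetti (Etv4 and Dusp6 higher, Etv5 lower), where 5.76% of the 13760 genes tested passed (edgeR, adjusted over all genes). At an unadjusted p under 0.05 it was 7 of 10, with Dusp4, Dusp5, Spry2 and Spry4 added, against 31.1% of genes. The median absolute log2 fold change of the set was 1.44 and that of all genes 0.60. DESeq2 called 6 of the 10 there (16% of genes), all of these but Spry4, and edgeR without the filter on low counts called the same 6 (15.5%). The calls depended on single libraries and on the cells summed. Without Confetti RFP or Confetti YFP none of the 10 passed, and 1 gene in all did (0.00723% and 0.00726% of genes). None of the 10 passed without 2 weeks RFP replicate 2 (0.0369% of genes) or 4 days YFP replicate 1 (0.34%). Etv4 alone passed without 4 days YFP replicate 2 (1.15%), 2 weeks YFP replicate 1 (0.684%) or 2 weeks YFP replicate 2 (1.5%). Without 4 days RFP replicate 1 there were 6 members beside 14% of genes, and without its replicate 2 there were 7 beside 13.9%, so that the members' calls rose and fell with those of all genes. No gene passed when the cells of other types were summed too (0%), where Etv4 had an adjusted p of 0.103.

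**Figure D2:**
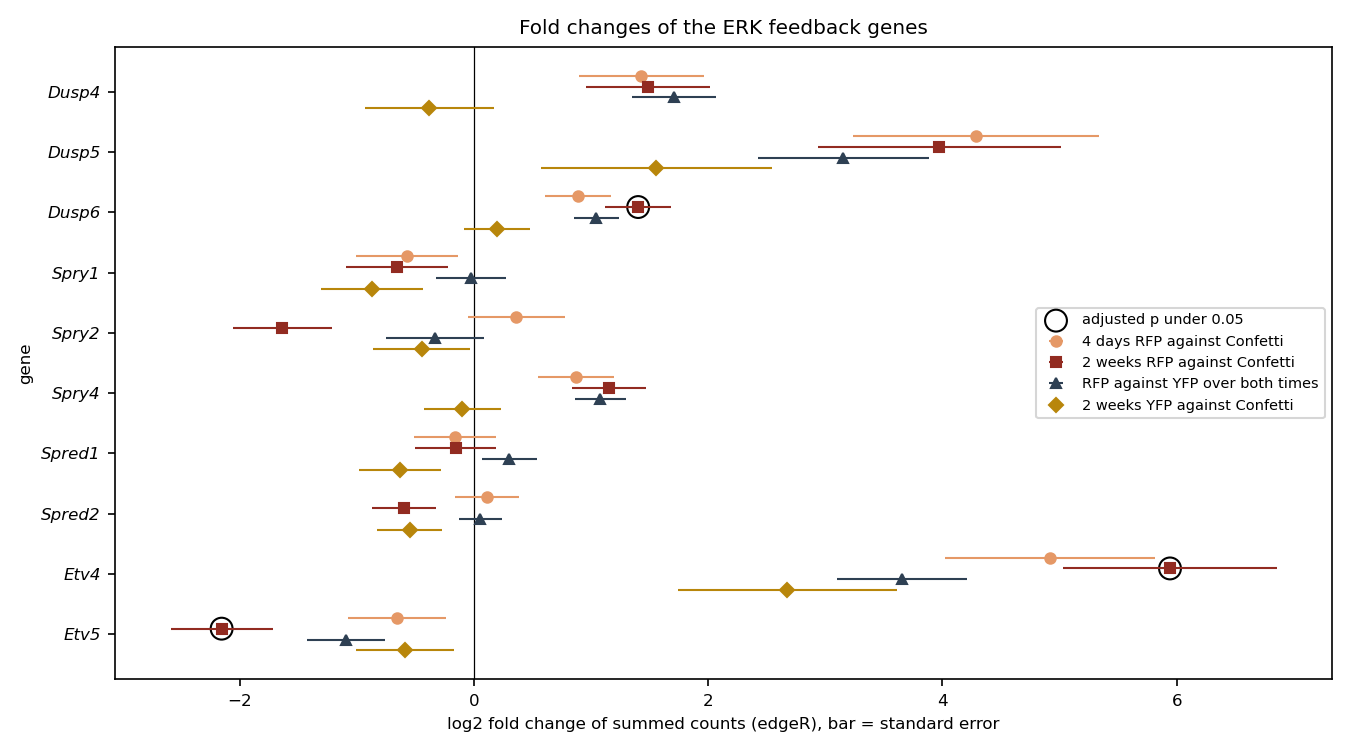
Log2 fold changes of the 10 genes in 4 comparisons (edgeR on summed counts), with standard errors as bars and a ring around values with an adjusted p under 0.05. The rings are on Etv4, Dusp6 and Etv5 in 2 weeks RFP against Confetti, and for Dusp4, Dusp5, Dusp6, Spry4 and Etv4 the 3 comparisons of mutant with wildtype cells are all to the right of 0.

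Over both times, 4 RFP libraries were compared with 4 YFP libraries. Dusp4, Dusp6, Spry4 and Etv4 were higher in every RFP library than in every YFP library, a pattern shown by 4.31% of genes, and they were also above both Confetti libraries, as were 3.5% of genes. No member was lower in every RFP library, against 4.73% of genes relative to YFP and 3.76% relative to all 6 wildtype libraries. The log2 differences (SE) were 3.66 ± 0.56 for Etv4, 3.15 ± 0.73 for Dusp5, 1.71 ± 0.36 for Dusp4, 1.08 ± 0.21 for Spry4, 1.05 ± 0.19 for Dusp6 and -1.09 ± 0.33 for Etv5, with adjusted p of 0.0678, 0.0846, 0.0830, 0.0804, 0.0800 and 0.115. None of these passed and no gene of the 13198 tested did (0%), whereas 6 members, these ones, and 21.6% of genes had an unadjusted p under 0.05, and DESeq2 called the same 6 (9.72% of genes), as did edgeR without the filter (9.38%).

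Replicate numbers were shared between RFP and YFP libraries of a time point, and their deviations went together. With each time's replicate number as a block, a fit chosen after the data were seen, the same 6 members passed beside 17.1% of genes. Etv4 was then at 3.73 ± 0.31 (adjusted p = 0.0011), Dusp6 at 1.06 ± 0.15 (0.0055), Dusp4 at 1.60 ± 0.27 (0.0081), Spry4 at 1.09 ± 0.19 (0.0098), Dusp5 at 2.69 ± 0.54 (0.0147) and Etv5 at -1.17 ± 0.28 (0.0255). A block of the number alone called these 6 as well (6.92% of genes), and so did the unblocked fit without 4 days RFP replicate 1 (10.6% of genes), whereas without 2 weeks YFP replicate 2 it called Etv4 alone (0.0365%). Spry1, Spry2, Spred1 and Spred2 passed in none of these fits.

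Within each time the test had 2 libraries against 2 and no member passed. At 4 days RFP and YFP differed by 4.18 ± 0.85 for Etv4, 4.00 ± 1.04 for Dusp5 and 0.92 ± 0.28 for Dusp6 (log2, SE, adjusted p = 0.809 each), with 0% of genes called. Unadjusted, Dusp4, Dusp5, Dusp6, Spry4 and Etv4 were under 0.05, against 5.68% of genes, DESeq2 called Dusp5 and Etv4 (0.77%), and edgeR without the filter called these and Dusp4 (2.37%). At 2 weeks the differences were 3.27 ± 0.78, 2.42 ± 0.96 and 1.20 ± 0.28 (adjusted p = 0.193, 0.280 and 0.193). Unadjusted, 7 members were under 0.05, against 16.3% of genes, DESeq2 called Dusp4, Dusp6, Etv4 and Etv5 (3.39%), and edgeR without the filter called these, Dusp5 and Spry2 (6.62%). The change of the difference from 4 days to 2 weeks passed for no gene in edgeR (0%, 1.53% unadjusted, of the members Spry2) or DESeq2 (0%).

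Against Confetti, 4 days RFP gave no call among all genes in edgeR (0%), with Dusp4, Dusp5, Dusp6, Spry4 and Etv4 under 0.05 unadjusted, against 8.8% of genes. DESeq2 called Dusp5 and Etv4 there (1.88%), edgeR without the filter called these and Dusp4 (3.9%), and without the AT2-rich RFP replicate 1 edgeR called Dusp4, Dusp5 and Etv4 there (2.39% of genes) and Dusp4 and Dusp5 in RFP against YFP at 4 days (1.42%). In the wildtype neighbours, no member passed at 4 days (edgeR 0.0291% of genes, DESeq2 0.0872%, none of the members among the 1.83% under 0.05 unadjusted) or at 2 weeks (edgeR 0.0218%, DESeq2 0.734%, Etv4 among the 5.65% under 0.05 unadjusted), but without the filter Dusp5 and Etv4 were called at 2 weeks (2.58%). These comparisons share the Confetti libraries.

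The members differed in which mutant cells carried them. The genes themselves were left out of the clustering, but the other genes of the same cells made the clusters, so that the values by state are a description. They are in CPM of the summed cells, without TMM scaling, and cover states with at least 50 cells in a library unless a smaller number of cells is given. Among the Etv4 UMIs of 4 days RFP replicate 1, 62.8% came from AT2-like cells, in which its level was 4.95 CPM, against 0.519 CPM in AT2-like cells of 4 days YFP replicate 1 and 0.270 and 0.474 CPM in those of Confetti. Without cluster 4 these levels were 3.67 CPM against 0.381, 0.164 and 0.108 CPM. In DATP-like cells Etv4 reached 33.3, 39.0 and 44.1 CPM (4 days RFP replicate 2 and both 2 weeks RFP libraries) and 17.4 CPM in the 45 such cells of 4 days RFP replicate 1 (7 UMIs), in cycling-like RFP cells 16.4 to 37.3 CPM and in primed AT2-like RFP cells 4.59 to 21.1 CPM. Primed AT2-like cells of the YFP libraries had 0 to 0.360 CPM, and cycling-like wildtype cells 0 to 3.02 CPM, so that at 50 cells or more Etv4 was higher in mutant than in wildtype cells of the AT2-like, primed AT2-like and cycling-like states. Smaller groups did not all follow this. The 20 cycling-like cells of 2 weeks YFP replicate 2 had 19.9 CPM, from 4 UMIs in 1 cell, which is within the RFP range, and the 45 AT2-like cells of 4 days RFP replicate 2 had no UMI. In DATP-like cells the colours were not told apart. The few such YFP cells had 38.3 CPM at 4 days (replicate 2, 3 UMIs in 7 cells) and 32.0 and 34.0 CPM at 2 weeks (11 UMIs in 23 cells and 18 in 31), within the RFP range of 17.4 to 44.1 CPM, and 2 cells of 4 days YFP replicate 1 had none. Within the primed AT2-like state the colours lay largely in different clusters. Cluster 3 was 59.0% 4 days YFP replicate 2, cluster 5 was 83.6% 2 weeks YFP replicate 1 and cluster 8 was 86.7% 2 weeks RFP replicate 1, and heat-shock genes (Hspa1a, Hspa1b, Dnajb1) were among the leading genes of clusters 5 and 8. Inside single clusters Etv4 was at 4.11 CPM in RFP and 0.208 CPM in YFP of 4 days replicate 2 (cluster 3), and in 2 weeks replicate 1 at 2.01 against 0.349 CPM (cluster 5) and at 12.7 CPM against 0 of 64 cells with a UMI (cluster 8).

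Dusp5 was held mostly by the DATP-like cells in 3 of the 4 RFP libraries. In 4 days RFP replicate 2, these were 36.4% of cells and gave 97.0% of the Dusp5 UMIs, with 282 CPM, against 6.00 CPM in primed AT2-like and 4.10 CPM in cycling-like cells of that library. At 2 weeks they gave 77.3% and 71.7% of the RFP Dusp5 UMIs, at 190 and 81.3 CPM. In 4 days RFP replicate 1, DATP-like cells (1.21% of cells) held 24.1% of the Dusp5 UMIs and AT2-like cells 61.3%. In AT2-like cells of that library, Dusp5 was at 5.14 CPM, near the 4.15 CPM of AT2-like cells in YFP replicate 1 (2.90 and 3.05 CPM without cluster 4). The few DATP-like YFP cells had 358 CPM at 4 days (28 UMIs in 7 cells) and 271 and 79.3 CPM at 2 weeks, beside 82.1 CPM in the 45 such cells of 4 days RFP replicate 1 and the RFP levels above, so that the colours were not told apart here either. Dusp4 followed it in part, with 44.5, 26.6 and 21.7 CPM in DATP-like RFP cells (27.4 CPM in the 45 of 4 days replicate 1) and 5.87 CPM in AT2-like cells of 4 days RFP replicate 1, where those of YFP replicate 1 had 4.46 CPM (4.27 and 4.45 CPM without cluster 4).

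Dusp6 was spread over all states. In 4 days replicate 1 its level in AT2-like cells was 85.5 CPM in RFP and 52.9 CPM in YFP, and RFP was higher inside clusters 1 and 2 (70.4 against 43.5 CPM and 69.3 against 44.5 CPM). In cluster 4 it was at 126 CPM in RFP and 93.2 CPM in YFP, and Confetti cells of this cluster had 75.5 and 74.9 CPM. At 2 weeks, AT2-like cells of replicate 1 had 103 CPM in RFP and 93.7 CPM in YFP, but 218 of the 294 and 647 of the 799 cells were of cluster 4, and the others had 66.5 CPM (45 UMIs) and 25.4 CPM (17 UMIs). Primed AT2-like cells had 65.7 to 107 CPM in RFP and 18.4 to 48.4 CPM in YFP, over the differing clusters named above. Inside a cluster the gap was narrower at 2 weeks, with 59.4 against 48.6 CPM (cluster 5) and 96.7 against 88.0 CPM (cluster 8) in replicate 1, than in 4 days replicate 2, with 62.9 against 31.7 CPM (cluster 3). DATP-like RFP cells had 98.3, 235 and 158 CPM.

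Etv5 was lowest in DATP-like cells, at 21.2, 21.01 and 12.99 CPM in the 3 RFP libraries, and 73.0 and 84.0 CPM in Cd177 mixed-like cells. AT2-like cells had 325 CPM in 4 days RFP replicate 1, 383 CPM in YFP replicate 1 and 363 and 483 CPM in Confetti. In primed AT2-like cells the 2 weeks RFP libraries had 169 and 71.7 CPM, against 251 and 232 CPM in 2 weeks YFP. Within 4 days RFP replicate 2, DATP-like cells were thus far below the primed AT2-like cells, which had 311 CPM. Spry2 was not low in those DATP-like cells, at 613 CPM, and in 2 weeks RFP it lay between 51.8 and 185 CPM in the states measured, against 154 to 317 CPM in 2 weeks YFP. Spry1 was at 18.4, 53.2 and 65.7 CPM in DATP-like and at 85.8 to 236 CPM in AT2-like, primed AT2-like and cycling-like RFP cells.

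**Figure D3:**
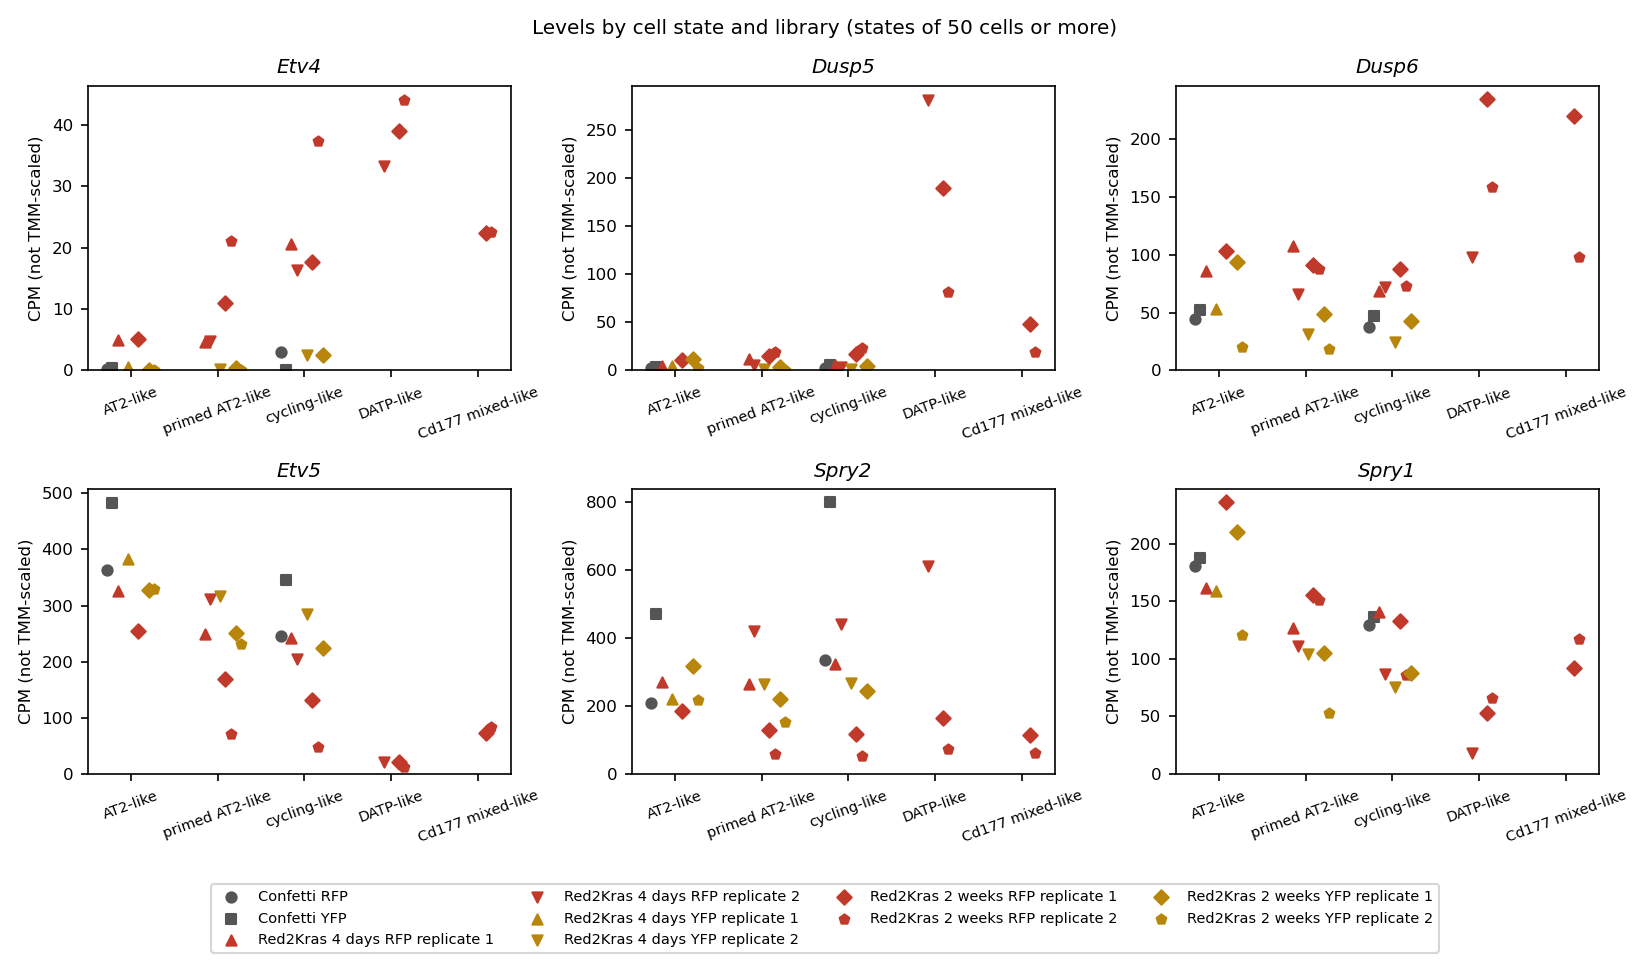
Levels of Etv4, Dusp5, Dusp6, Etv5, Spry2 and Spry1 by cell state and library, in CPM on linear axes from 0, for states with at least 50 cells in a library. Each symbol is 1 library, red for Red2Kras RFP, ochre for Red2Kras YFP and grey for Confetti. Dusp5 is high in DATP-like cells, up to 282 CPM, where Etv5 is at 21.2 CPM or less, and Etv4 is above the wildtype libraries in the 3 states drawn for both, at 50 cells or more. DATP-like YFP cells were under 50 in every library and are not drawn.

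The few Etv4 UMIs of the wildtype neighbours at 2 weeks were unevenly spread over the states. In 2 weeks YFP replicate 2, DATP-like cells were 3.07% of cells and held 62.1% of the Etv4 UMIs (18 UMIs in 12 of 31 cells), Cd177 mixed-like cells held a further 7 UMIs, and the other 4 were in 1 of 20 cycling-like cells. Its 841 primed AT2-like and 93 AT2-like cells had none, which allows up to 3 UMIs in each. In 2 weeks YFP replicate 1, 23 DATP-like cells of 4225 held 11 of 24 Etv4 UMIs (8 cells with a UMI) and 93 of 224 Dusp5 UMIs, and primed AT2-like and cycling-like cells held 7 and 6 of the Etv4 UMIs. How cells of these states came to be among YFP+ cells was not tested.

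To compare cells at 1 depth, each alveolar cell was thinned to 2000 UMIs. The share of cells with an Etv4 UMI was then 0.942% and 3.29% in 4 days RFP and 3.28% and 5.13% in 2 weeks RFP, with 95% exact binomial intervals of 0.657 to 1.31%, 2.43 to 4.35%, 2.76 to 3.88% and 4.33 to 6.01%. In the 6 wildtype libraries it was 0.071 to 0.297%, and the discarded immune cells had 0.124% (interval 0.0256 to 0.362%, median 7080 UMIs per cell), so that over whole wildtype libraries the share was not told apart from that of immune cells, although the DATP-like cells above stand out within 2 weeks YFP. Before thinning, the RFP shares were 2.93%, 8.60%, 23.0% and 30.2%. The Dusp6 share after thinning was 14.4%, 13.1%, 18.4% and 18.6% in RFP and 4.46 to 10.2% in wildtype libraries, and the intervals of the 4 RFP libraries lay above all 6 wildtype ones. Of the discarded types, immune cells had 5.45%, ciliated cells 7.34%, mesenchymal cells 12.9% and endothelial cells 29.8%, so that none serves as a clear background for Dusp6.

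The Dusp5 share was 15.7% in 4 days RFP replicate 2 and 7.63% and 6.28% in 2 weeks RFP, but 1.16% in 4 days RFP replicate 1, within the interval of 2 weeks YFP replicate 1 (0.839 to 1.504%). Immune cells had 19.6%, endothelial cells 5.77%, mesenchymal cells 9.41% and ciliated cells 1.16% (interval 0.240 to 3.35%), so that no discarded type serves as a clear background for Dusp5. The Etv5 share was 43.3% and 28.4% in 4 days RFP, 22.6% and 9.06% in 2 weeks RFP, 45.5 to 50.2% in 4 days YFP, 34.1 to 38.6% in 2 weeks YFP and 47.8 to 56.7% in Confetti, against 2.93% in immune cells. For Spry4, 1.05 to 1.61% of RFP cells and 0.297 to 0.687% of wildtype cells had a UMI, and several intervals overlapped. For Dusp4 the share in 4 days RFP replicate 1, 1.05%, did not differ from the Confetti shares of 1.00 and 1.04% beyond counting error.

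**Figure D4:**
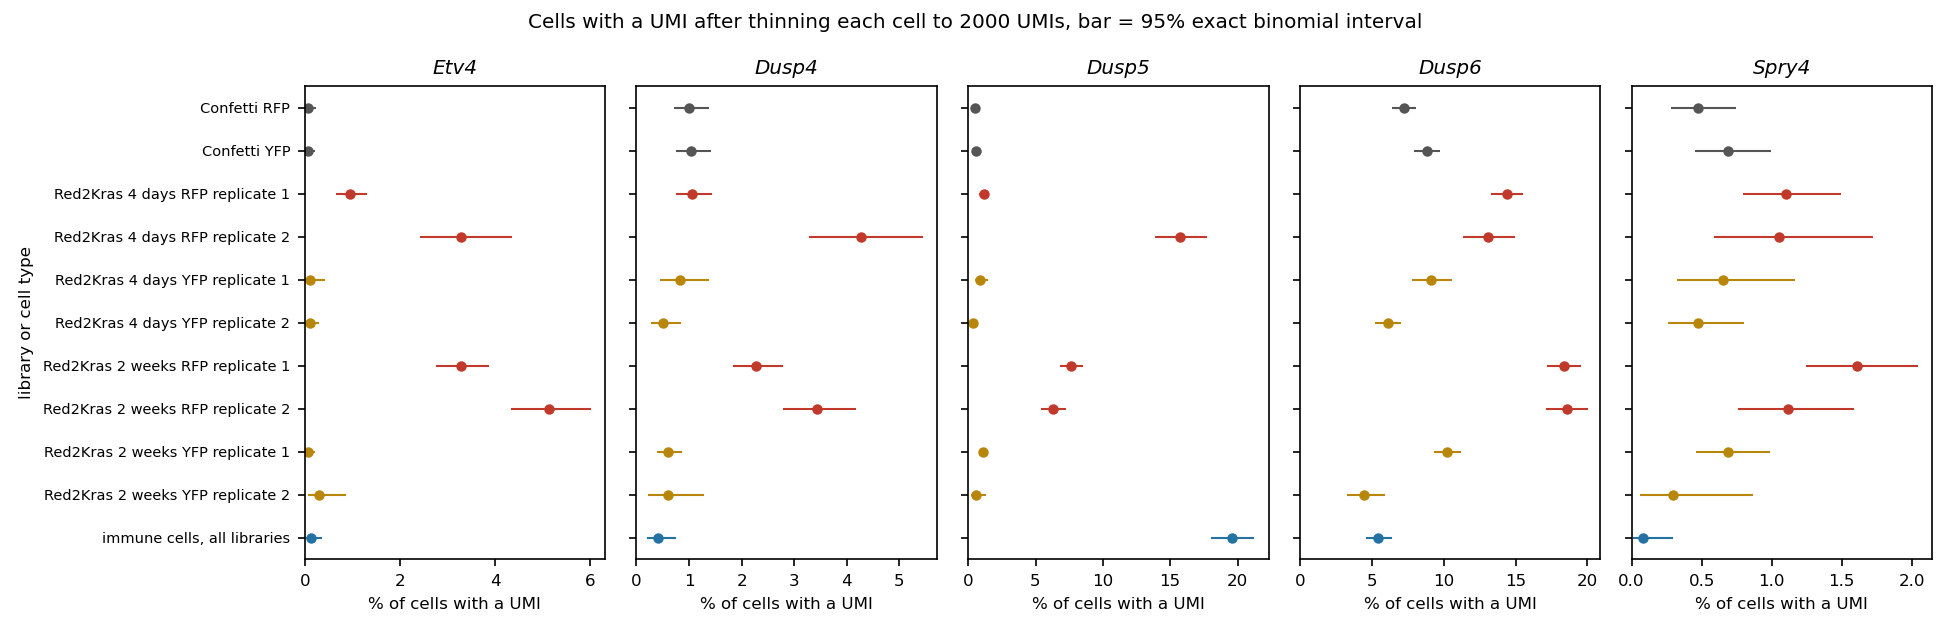
Share of cells with at least 1 UMI of Etv4, Dusp4, Dusp5, Dusp6 or Spry4 after thinning every cell to 2000 UMIs, in percent from 0, with 95% exact binomial intervals for counting error as bars. Red is Red2Kras RFP, ochre Red2Kras YFP, grey Confetti and blue the discarded immune cells. Etv4 reaches 5.13% in RFP and at most 0.297% in wildtype libraries, and immune cells have the most cells with Dusp5 (19.6%).

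At this depth, 28.2% and 29.1% of 2 weeks RFP cells and 17.9% and 30.2% of 4 days RFP cells had a UMI of at least 1 of Dusp4, Dusp5, Dusp6, Spry4 and Etv4, against 5.95 to 12.2% in wildtype libraries. These 5 were chosen as the genes that were higher in RFP, so that this share only describes them. Over all 10 genes, a cell had a UMI of 0.910 to 1.47 genes on average in RFP and 0.873 to 1.73 in wildtype libraries, and 3 or more genes were found in 5.56 to 15.4% of RFP cells and 3.87 to 20.7% of wildtype cells. Detection of Dusp5 and of Etv5 was also compared cell by cell. In 4 days RFP replicate 2, 4.00% of the 225 cells with a Dusp5 UMI had an Etv5 UMI, against 33.0% of the 1204 without. In 2 weeks RFP these shares were 9.39% against 23.7% and 3.45% against 9.44%, and in 4 days RFP replicate 1 they were 34.9% of 43 cells against 43.4%. For cells with Etv4 the shares with Etv5 were 17.0% against 28.8% in 4 days RFP replicate 2. In 2 weeks RFP they were 12.03% against 23.0% and 3.52% against 9.36%. The gap was small in 4 days RFP replicate 1, with 40% of 35 cells against 43.3%. Cells are not replicates, and these are descriptions of single libraries.

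Of 62 other pathway genes in 7 lists, 5 passed in 2 weeks RFP against Confetti, all higher, where 5.76% of all genes passed in either direction, so that the lists as a whole stood near the background. None passed in the other comparisons. Among EGF family ligands, 3 of 6 tested passed, and the others were also above Confetti without passing. Those that passed were Ereg (7.79 ± 1.09, log2, SE), Areg (3.00 ± 0.43) and Hbegf (2.51 ± 0.37), with adjusted p = 0.0328 each. The list's median was 2.76 against 0.03 for all genes. Areg was at 159 and 117 CPM in Confetti and 955 and 1239 CPM in 2 weeks RFP, and at 356 and 265 CPM in the 2 weeks YFP neighbours. Of 7 other MAP kinase phosphatases Dusp9 alone passed (2.94 ± 0.69, adjusted p = 0.0498), with 0.497 and 0.539 CPM in Confetti and 3.31 and 4.71 CPM in 2 weeks RFP. That list's median was 0.56. Of 11 other ERK targets, only Epha4, an ephrin receptor, passed (1.73 ± 0.40, adjusted p = 0.0476), and the list's median was 1.42.

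The remaining lists had no call in either direction. Of 19 genes of the ERK cascade, the scaffold gene Ksr1 was at 2.85 ± 0.97 (adjusted p = 0.0972), and the list's median was 0.20. Of 7 receptors the smallest p-values were those of Fgfr2 (-1.49 ± 0.37, adjusted p = 0.0523) and Met (-1.19 ± 0.35, adjusted p = 0.0720), with a median of -1.19. Of the other family members Spred3 was at 0.58 ± 0.61 and Etv1 at 0.31 ± 0.68, and Spry3 did not pass the filter. Of 8 stress and immediate-early genes, Dnajb1 was at 2.42 ± 0.78 (adjusted p = 0.0877) and Hspa1a at 2.68 ± 0.92 (adjusted p = 0.0989), and this list's summed level was 1723 to 1805 CPM in Confetti, 1856 to 6541 CPM in RFP and 1892 to 8148 CPM in YFP. Its part in the levels of the ERK feedback genes was not tested.

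Over the 10 libraries, the members fell into those that went with Etv4 and those that did not. Pearson's r of log2(CPM + 1) with Etv4 was 0.90 for Dusp5, 0.87 for Dusp4, 0.86 for Dusp6 and 0.82 for Spry4, and -0.87 for Etv5. Dusp6 and Spry4 were at 0.95, Spry1 and Spred1 at 0.85, and Etv5 and Spred2 at 0.71. The genes most like Dusp5 were Sgms2, Hmga2 and Fosl1 (r = 0.99 each), those most like Etv4 were Atp13a4, Tubb6 and Set (0.98, 0.97 and 0.97), and those most like Dusp6 were Cep83, Gdf15 and Ywhab (0.97, 0.96 and 0.95). Etv5 was most like Ak1, Dyrk2 and Anpep (0.99 each), and Spry2 most like Rbm15, Wtap and Hnrnpul1 (0.97 each). Dusp4 was most like Atic, Ugcg and Agpat5, Spry4 like Pf4, Nap1l1 and Trp53, Spry1 like Cyp2f2, Kmt2e and Phip, Spred1 like Hnrnpa2b1, Zmym4 and Tanc1, and Spred2 like Snd1, Bex1 and Canx, with r from 0.95 to 0.98. The points share groups, cell states and depth, so that these values describe the libraries only.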

How the data were processed

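Single-cell RNA libraries (10x Genomics 3′) of sorted EpCAM+ cells were analysed from the UMI counts deposited by the authors, 1 filtered matrix per library, made with Cell Ranger against GRCm38. Per the labels the version was 3.1.0, whereas the file headers give 5.0.1. Labels and methods also differ on the chemistry version. Cells with at least 1000 genes, at most 50000 UMIs and at most 15% mitochondrial UMIs were kept and clustered by the Louvain method with the 10 genes left out (scanpy 1.11.5, igraph 0.11.9). Clusters were named from marker lists, so that the states are rebuilt and are not the study's own. Doublet candidates (940) were kept in, and removed in an alternative.

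Counts of alveolar cells were summed per library without the 13 mitochondrial genes, filtered with filterByExpr, scaled by TMM and tested with edgeR 4.0.16 (quasi-likelihood F test, R 4.3.3). One coefficient was fitted per group over the 10 libraries, and for RFP against YFP over both times, group and time over the 8 Red2Kras libraries. Benjamini-Hochberg adjustment ran across every tested gene, and calls were made at 0.05. Alternatives were RLE scaling, DESeq2 1.42.0, no filter, all cell types, doublets or shared barcodes removed (274 cells), a replicate block and each library left out. P-values measure the spread between replicate libraries, which are pools of lungs. No batch is given in the labels. The methods say that the libraries were generated over 2 days and mention batches, but not which libraries shared a day. A difference between days therefore cannot be told apart from one between pools. Replicates differed beyond sampling noise. Same-numbered RFP and YFP libraries deviated together within a time (r = 0.479 at 4 days and 0.626 at 2 weeks, across genes), and less across times (0.020 to 0.295). Within a time they may come from the same lungs. Intervals cover counting error only. The genes and the pathway lists were chosen with earlier results of these data known. All 10 genes, the list genes that passed (otherwise up to 2 per list by smallest p) and the 3 genes with the highest correlation with each member, of those with a mean of at least 10 CPM, are named, except 1 list gene that is not reported here. The edgeR fit was tested on simulated counts with known changes, for 2 weeks RFP against Confetti only. Those counts had the same spread for every gene and no shift shared by libraries, unlike the data.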

Additional observations from a re-analysis of the deposited data

Results flagged for a closer look

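Of the 20 groups of 4 values examined (10 genes in the 4 Red2Kras RFP and in the 4 YFP libraries), 2 had a sample far from the others, both in YFP. Chance gives about 1 in 20 for independent groups of like values. Here each group joins both times and the genes share libraries, so that this rate is only a rough guide. Dusp4 was at 3.30 CPM in 2 weeks YFP replicate 1, below the other 3, with a gap of 0.917 of the range. Etv4 was at 4.78 CPM in 2 weeks YFP replicate 2, above the other 3, with a gap of 0.896 of the range, and 62.1% of its Etv4 UMIs were in the 31 DATP-like cells.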

How the results depend on the processing

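Of the 10 genes, the number called moved from 3 to 6 in 2 weeks RFP against Confetti with DESeq2 or without the filter, and to 0 with all cell types. Without the filter 20851 genes were tested in place of 13760 and more were called among all genes too (15.5% in place of 5.76% in the first comparison). The number moved from 0 to 2 (DESeq2) and 3 (no filter, beside 2.37% and 3.9% of genes) in RFP against YFP at 4 days and in 4 days RFP against Confetti, to 4 and 6 in RFP against YFP at 2 weeks (no filter 6.62% of genes), to 2 without the filter in 2 weeks YFP against Confetti (2.58%), and to 6 over both times (no filter 9.38%) with DESeq2, without the filter, or with either replicate block. Leaving out single libraries gave 0 to 7 calls in 2 weeks RFP against Confetti, 0 to 3 in 4 days RFP against Confetti, 0 to 2 in RFP against YFP at 4 days and 0 to 6 over both times, and 0 to 0 elsewhere. The cause was not tested. Of the fold changes under these alternatives, 500 kept direction and call, 53 gained a call, 3 lost it and 14 turned in sign.

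Signs turned for Spred2 in RFP against YFP at 2 weeks (0.0042 without the filter, 0.17 with all cells) and for Spry1 over both times (0.0012 with RLE and DESeq2, 0.11 with all cells). With the replicate block they turned for Spred1 in 4 days and 2 weeks RFP against Confetti (0.042 and 0.11), Spry4 in 2 weeks YFP against Confetti (0.0098) and, in 4 days YFP against Confetti, Dusp5 (-0.059), Dusp6 (0.090), Spry4 (0.061), Spred2 (0.075), Etv4 (-0.10) and Etv5 (0.18).

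With single libraries left out, ranges that crossed 0 were, in RFP against YFP at 4 days, Spry1 -0.92 to 0.24 and Spred1 -0.27 to 0.49, at 2 weeks, Spry1 -0.13 to 0.63 and Spred2 -0.39 to 0.18, and over both times, Spry1 -0.22 to 0.21, Spry2 -0.66 to 0.047 and Spred2 -0.038 to 0.18. In 4 days RFP against Confetti they were Spry2 -0.17 to 0.88, Spred1 -0.59 to 0.17 and Spred2 -0.048 to 0.25. In 4 days YFP against Confetti they were Dusp6 -0.37 to 0.24, Spry2 -0.75 to 0.32, Spred2 -0.23 to 0.056 and Etv5 -0.24 to 0.065, and in 2 weeks YFP against Confetti, Dusp6 -0.024 to 0.37, Spry2 -0.98 to 0.086 and Spry4 -0.28 to 0.019. For the change from 4 days to 2 weeks they were Dusp4 -0.38 to 1.42, Dusp5 -2.51 to 1.46, Dusp6 -0.051 to 0.54, Spry1 -0.023 to 1.13, Spred1 -0.013 to 0.74 and Etv4 -1.85 to 0.49. A lone library left in a group is assumed to vary like the others. Depth limits Etv4 in wildtype libraries, with 5 to 29 UMIs each.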
